A study of Mus musculus with 8 samples.

Results

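Protein arginine methyltransferases (PRMTs) transfer methyl groups from S-adenosylmethionine to arginine side chains of histones, splicing proteins and other RNA-binding proteins. Type I enzymes make asymmetric dimethylarginine, PRMT5 makes most symmetric dimethylarginine as a type II enzyme, and PRMT7 makes monomethylarginine as a type III enzyme. PRMT5 acts in a complex with the WD-repeat protein WDR77 (also known as MEP50), and its adaptors pICln (encoded by Clns1a) and RIOK1 bind it in turn and bring it different substrates. In germ cells PRMT5 is known for its association with BLIMP1 and for methylating the arginine-rich tails of PIWI proteins. The 10 genes described here were listed by name: the 7 methyltransferase genes Prmt1, Prmt2, Prmt3, Carm1, Prmt5, Prmt6 and Prmt7, and the partner genes Wdr77, Clns1a and Riok1. All 10 had counts and all 10 passed the filter on low counts, out of 21444 genes with a count and 10990 genes tested.

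The RNA came from primordial germ cells, the embryonic precursors of eggs and sperm, sorted by the dPE_Oct4 GFP reporter from mouse embryos of a mixed C57BL/6 and 129 background at 11.5 days post coitum. The 4 Control libraries had the genotype Blimp1Cre;Prmt5flox/+ and the 4 Prmt5 KO libraries Blimp1Cre;Prmt5flox/flox, so both groups carried Cre driven by Blimp1 and at least 1 floxed Prmt5 allele, and the Control is not a wild type. Blimp1 marks early germ cells, and a cell sorted as a germ cell need not have recombined both alleles. The labels do not say whether libraries of 1 group came from separate embryos, so p-values measure only the spread between these libraries.

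Gene counts per library totalled from 1811428 (Control 3) to 6549504 (Prmt5 KO 3), with Control 2 the next lowest at 2289239. Of the 11 germ cell markers examined, all had counts in both groups and their summed level was 2894 to 3356 CPM (read counts divided by library size, on a common scale) in Control and 2852 to 3402 CPM in Prmt5 KO. The most abundant were Kit, the stem cell factor receptor, Dppa3, Tfap2c and Pou5f1. Markers of somatic gonad and mesonephros summed to 141 to 245 CPM in Control and 185 to 615.5 CPM in Prmt5 KO, where Prmt5 KO 1 held the highest value, with the smooth muscle actin gene Acta2 at 208 CPM. The most abundant somatic marker was Mfge8. Of the 6 somatic markers tested 5 had a log2 fold change above 0 (median 1.13), against 52.7% of all tested genes. By edgeR 0 were called (2 at an unadjusted p under 0.05, against 8.15% of all tested genes). The 2 were Acta2 and Col1a1, which were high in Prmt5 KO 1 alone. Acta2 was at 2.71, 5.95 and 3.99 CPM in Prmt5 KO 2 to 4. Col1a1 was at 92.9 CPM in Prmt5 KO 1 and at 1.94, 2.53 and 1.74 CPM in Prmt5 KO 2 to 4. Wt1 and Pdgfra were also highest of all libraries in Prmt5 KO 1, at 39.3 and 24.5 CPM. So were Gata4, Nr5a1, Nr2f2 and Lhx9, which did not pass the filter, at 29.7, 14.9, 10.6 and 8.27 CPM. Pax8 and Mfge8 were highest in Control libraries. Endothelial markers summed to 279 to 360 and 296 to 395 CPM, mostly from Pecam1, which germ cells also express, while Kdr and Tie1 did not exceed 1.65 CPM in any library. Cdh5 reached 5.80 CPM in Control 4 and did not exceed 1.52 CPM in any other library. Of the 3 endothelial markers tested 0 were called by edgeR (1 at an unadjusted p under 0.05, against 8.15% of all tested genes). That 1 was Tek, a receptor of angiopoietins, at 28.9, 4.46, 7.68 and 8.09 CPM across the Control libraries and 72.4, 12.2, 53.7 and 71.0 CPM across the Prmt5 KO libraries (log2 fold change 2.05, edgeR adjusted p = 0.409), with overlap, while Egfl7 was at -1.18 (edgeR adjusted p = 0.684). The part of the somatic and endothelial markers in the values below was not tested. Blood markers summed to 20.6 to 42.9 and 6.48 to 39.3 CPM, nearly all from Csf1r, and the leukocyte gene Ptprc had a count in Prmt5 KO 3 alone. In multidimensional scaling Prmt5 KO 4 (at -2.69 on the first dimension) and Prmt5 KO 1 (at -2.26 on the second) stood apart from the other libraries.

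The levels of the 10 genes in Control were compared first, as CPM per kilobase of transcript, since longer transcripts collect more reads. The partners Clns1a and Wdr77 stood highest: Clns1a, the adaptor pICln that presents Sm proteins, had a median of 125.5 CPM per kilobase (range 101 to 135, n = 4), and Wdr77, the obligate partner, a median of 123 (range 120 to 138). They stood at percentiles 95.2 and 95.1 of the tested genes in Control. Their ranges overlapped, and both lay above all Control libraries of every methyltransferase gene. The median over all tested genes was 9.43 CPM per kilobase.

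Among the enzymes, Prmt7 had the highest Control median (58.3 CPM per kilobase, range 48.3 to 62.3). Prmt5 followed at 53.7 (range 33.2 to 63.8), then Prmt3, which methylates the ribosomal protein RPS2, at 41.1 (range 22.0 to 49.3), and Carm1, a coactivator that methylates histone H3 and splicing factors, at 32.1 (range 29.0 to 39.99). Neighbours in this order overlapped in range and did not differ beyond their spread. Riok1, the kinase-family adaptor that competes with pICln for PRMT5, was lower at 18.3 (range 14.5 to 23.6), below every Control library of Carm1 and above every one of Prmt6. Prmt6, a nuclear enzyme that methylates histone H3 at arginine 2 (H3R2), was at 8.21 (range 5.52 to 9.84) and Prmt2 at 5.81 (range 3.74 to 6.77), and these overlapped.

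Prmt1, which encodes the main type I enzyme of most mammalian cells, was the lowest of the 10 in Control, at 2.28 CPM per kilobase (range 1.18 to 4.00, overlapping that of Prmt2), at percentile 18.6 of the tested genes. Its counts were 25, 4, 11 and 15 across Control libraries 1 to 4, against 19, 31, 32 and 20 across Prmt5 KO libraries 1 to 4. Of its 14 annotated transcripts, only 2, Prmt1-202 and Prmt1-201, were present in the deposited counts, so the others were not measured. No transcript of another gene in GENCODE M21 matched Prmt1 over at least 100 bases at 95% identity or more, so no annotated copy was found that could take its reads. Whether reads were lost in the authors' alignment or counting was not tested. Prmt8, a type I enzyme of the nervous system outside the 10, had at most 1 count in any library.

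**Figure D1:**
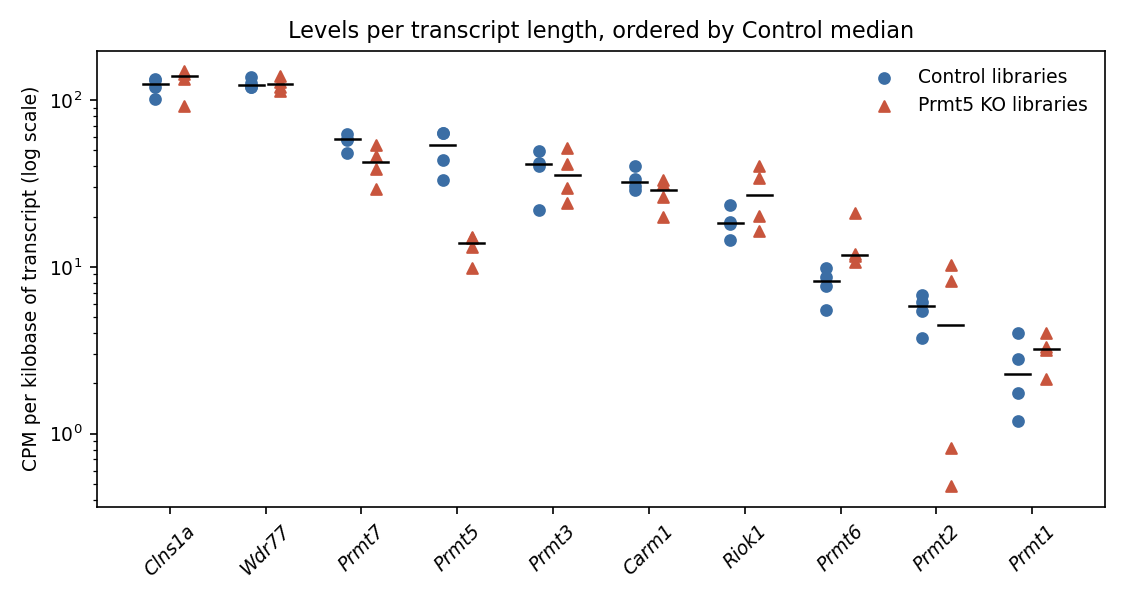
Level per transcript length (CPM per kilobase, log axis) of the 10 genes in each Control library (circles) and Prmt5 KO library (triangles), ordered by the Control median, with black bars at the medians. Clns1a and Wdr77 lie highest in both groups, from 92.6 to 148 and from 114 to 140.0 CPM per kilobase over all libraries, Prmt5 drops from a Control median of 53.7 to 13.96, and Prmt1 has the lowest median in both groups, though Prmt2 lies below it in Control 3 and in Prmt5 KO 1 and 4.

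Per unit length, the transcripts of Wdr77 exceeded those of Prmt5 in Control by a ratio of 4.15, 2.00, 1.88 and 2.73 in Control 1 to 4. Clns1a exceeded Riok1 in every library, by 5.57 to 7.22 times in Control and 3.59 to 7.36 times in Prmt5 KO, and these ranges overlapped. The order of levels depended on how a gene value was built: with the counts of all transcripts summed over the length of all exons, 4 of the 10 genes kept their rank, Carm1 moved to the second place, and Clns1a to the fifth. That sum takes reads shared by transcripts more than once: Carm1-201, Carm1-202, Carm1-204 and Carm1-209 each had 3616 counts. For Clns1a the sum is divided by 3856 bases in place of 1504, and these include Clns1a-203, which was absent from the deposited counts and so was not measured.

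The comparison of the genotypes asks whether the partners or the other methyltransferases change where Prmt5 is disrupted. Of the 10 genes 1, Prmt5, passed an adjusted p of 0.05, and the other 9 did not (edgeR quasi-likelihood test, adjusted p from 0.607 for Prmt7 to 0.993 for Wdr77). Over all 10990 tested genes the share that passed was 0.0273%. By DESeq2, too, Prmt5 alone of the 10 passed, against 0.963% of the genes to which that tool gave an adjusted p. Of the 10 genes 4 had a log2 fold change above 0, against 52.7% of all tested genes, and the median over the 9 genes other than Prmt5 was -0.0063, against 0.028 over all tested genes.

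Prmt5 (gene ENSMUSG00000023110, on the minus strand of GRCm38 chromosome 14 from 54507187 to 54517525) stood at 89.4, 170.5, 172 and 118 CPM across Control libraries 1 to 4, against 39.9, 40.5, 35.3 and 26.4 CPM across Prmt5 KO libraries 1 to 4. The highest Prmt5 KO library lay below the lowest Control library, and Control 1 was the lowest Control library. In the fit Prmt5 fell to 25.95% of its Control level (95% interval 17.3% to 39.0%; a log2 fold change of -1.95 ± 0.272 SE, edgeR adjusted p = 0.0389). The call rests on the whole set of libraries: it was lost on leaving out any library but Control 1 (adjusted p from 0.0578 to 0.234), and without Control 2 and 3 together the log2 fold change was -1.54 (adjusted p = 0.760), while the unadjusted p stayed under 0.05 in each fit run. In bulk RNA, fewer cells with an intact allele and less Prmt5 RNA per cell cannot be told apart.

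The Prmt5 reads were also examined by transcript, since annotated shorter forms cover different exons. The full transcript Prmt5-201 has 17 exons and a length of 2691 bases. Of these exons, the annotated shorter transcript Prmt5-202 spans exon 1 to exon 11, and Prmt5-206 exon 7 to exon 12. Prmt5-202 has 10 exons, so it does not hold every exon in its span. Reads counted for Prmt5-202 were at 26.1%, 22.8%, 26.2% and 22.9% of the counts of the full transcript across Control libraries 1 to 4, against 5.51%, 19.1%, 10.97% and 11.3% across Prmt5 KO libraries 1 to 4. Prmt5 KO 1 was thus lowest and Prmt5 KO 2 closest to Control, without overlap between the groups. For Prmt5-206 the values were 20.2%, 20.4%, 24.0% and 18.6% across the Control libraries, against 5.08%, 13.9%, 8.86% and 10.4% across the Prmt5 KO libraries, with the libraries at the lowest and highest places again Prmt5 KO 1 and 2. Expressed as CPM, the reads of Prmt5-202 went from 33.6 ± 10.1 in Control to 4.201 ± 2.46 in Prmt5 KO (mean ± SD, n = 4 libraries per group), 12.5% of Control, whereas the reads of the full transcript that were not counted for Prmt5-202, which include those of exons 12 to 17, went from 104 ± 31.0 to 31.3 ± 5.90, 30.1% of Control. Which exons are floxed was not given in the sources used here, and the transcripts share reads, so these values do not place a boundary.

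The same measure was taken for the shorter transcripts of the other genes. Of 26 shorter transcripts in 7 genes, the groups did not overlap for 2 of 6 in Prmt5 and for 0 of 20 in Wdr77, Clns1a, Prmt3, Carm1, Prmt6 and Prmt7. Over 14667 shorter transcripts of 3642 genes chosen by the same rule, the groups did not overlap for 4.10%. The spans of Prmt5-202 and Prmt5-206 overlap from exon 7 to exon 11, so their 2 values are not separate counts. Clns1a-202, which spans exons 1 to 4 of 7 with 3 exons, was at 18.6% ± 0.856 of the full transcript in Control and 17.3% ± 1.70 in Prmt5 KO (mean ± SD, n = 4 libraries per group). Prmt3-206, exons 1 to 12 of 16, was at 31.1% ± 2.64 and 31.1% ± 7.62 (mean ± SD, n = 4 libraries per group). Prmt7-203, which holds exons 1 to 6 of 18, was at 23.0% to 24.9% in Control and at 23.7%, 21.8% and 26.5% in Prmt5 KO 1 to 3, but at 7.56% in Prmt5 KO 4. The 5′ part of Prmt7 was therefore low in a single library, while the transcript of exons 9 to 13, Prmt7-205, was highest there within its group and ranged from 22.2% to 27.6% in Control. No test was made of these shares.

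**Figure D2:**
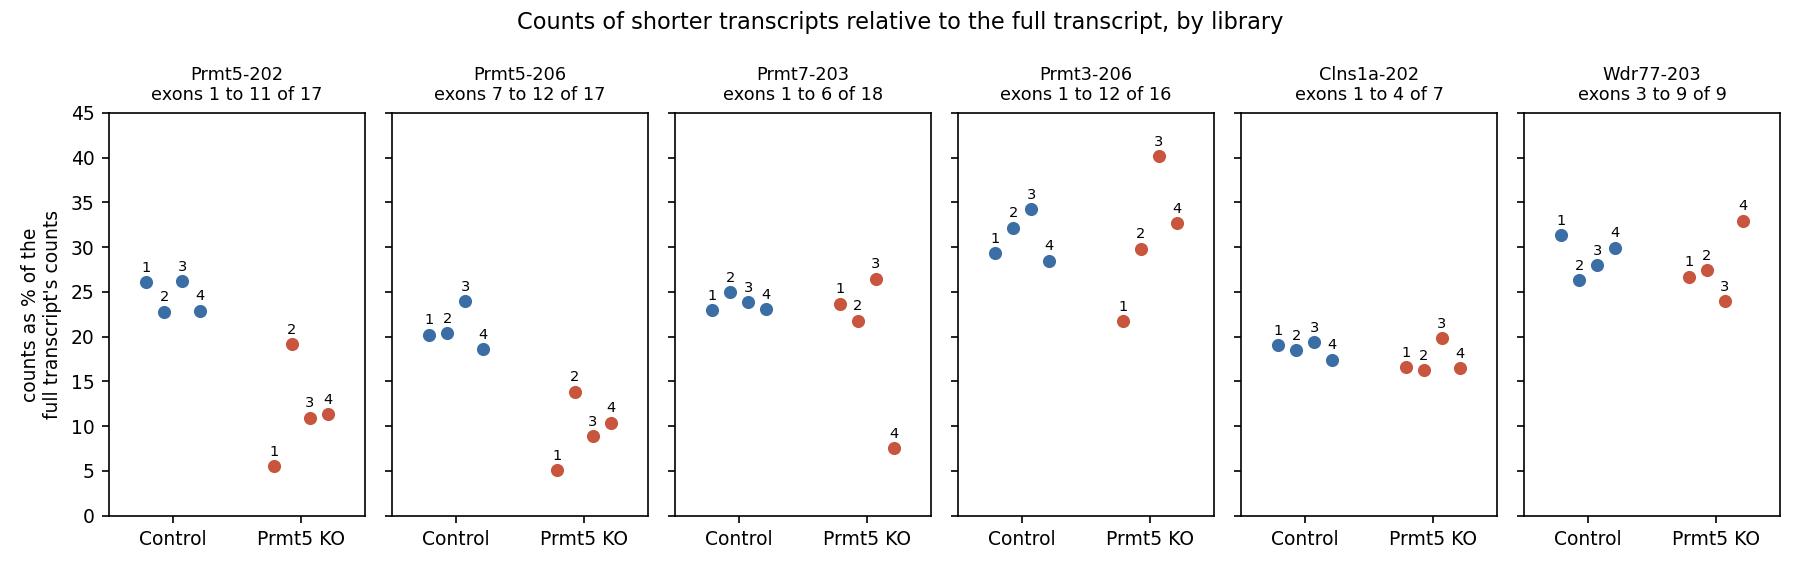
Counts of 6 shorter transcripts as a percent of the counts of the full transcript of the same gene (y axis), for Control (blue) and Prmt5 KO (red), with points numbered by library. Both Prmt5 transcripts lie lower in all 4 Prmt5 KO libraries than in any Control library, whereas the transcripts of Prmt7, Prmt3, Clns1a and Wdr77 overlap between groups and Prmt7-203 is low in Prmt5 KO 4.

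Transcripts of the PRMT5 partners were measured at the following levels. Wdr77 (gene ENSMUSG00000000561, on the plus strand of GRCm38 chromosome 3 from 105959369 to 105970037) was at 591, 542, 515 and 514 CPM across Control libraries 1 to 4, against 553, 512, 489 and 599.9 CPM across Prmt5 KO libraries 1 to 4. The groups overlapped, and the highest library of all was Prmt5 KO 4. Its ratio between the genotypes was 0.996 with a 95% interval of 0.831 to 1.19 (log2 fold change -0.0063 ± 0.121 SE, edgeR adjusted p = 0.993), the narrowest interval of the 10. The transcript with most reads, Wdr77-204, is annotated as a target of nonsense-mediated decay, but the protein-coding Wdr77-201 had nearly the same total, 20090 against 20179 counts. Of the bases of Wdr77-204, 1367 are shared with Gm42890 on the same strand and 192 with Atp5f1 on the opposite strand, so the Wdr77 counts are uncertain to that extent.

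Clns1a (gene ENSMUSG00000025439, on the plus strand of GRCm38 chromosome 7 from 97696634 to 97720796) was at 202, 152, 198 and 180 CPM across Control libraries 1 to 4, against 223, 217, 200.4 and 139 CPM across Prmt5 KO libraries 1 to 4. Prmt5 KO 4 lay below every Control library and Prmt5 KO 1 and 2 above them. The ratio was 1.06 (95% interval 0.805 to 1.41, edgeR adjusted p = 0.952).

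Riok1 (gene ENSMUSG00000021428, on the plus strand of GRCm38 chromosome 13 from 38036995 to 38061433) was at 51.0, 39.7, 64.7 and 49.4 CPM across Control libraries 1 to 4, against 55.2, 110, 92.7 and 44.9 CPM across Prmt5 KO libraries 1 to 4. Prmt5 KO 2 and 3 lay above all Control libraries and Prmt5 KO 1 and 4 among them. The ratio was 1.48 (95% interval 0.920 to 2.38, edgeR adjusted p = 0.682), and without Prmt5 KO 1 and 4 the log2 fold change was 0.99 in place of 0.57 (adjusted p = 0.411). Because Prmt5 was low, each partner stood higher relative to it in Prmt5 KO: the ratio of Wdr77 to Prmt5 per unit length was 2.69 ± 1.04 in Control and 9.90 ± 2.93 in Prmt5 KO, that of Clns1a to Prmt5 2.61 ± 1.07 and 9.80 ± 0.352, and that of Riok1 to Prmt5 0.393 ± 0.137 and 2.07 ± 0.654 (mean ± SD, n = 4 libraries per group). None of the 3 ratios overlapped between the groups, which follows from the fall of Prmt5 they share.

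**Figure D3:**
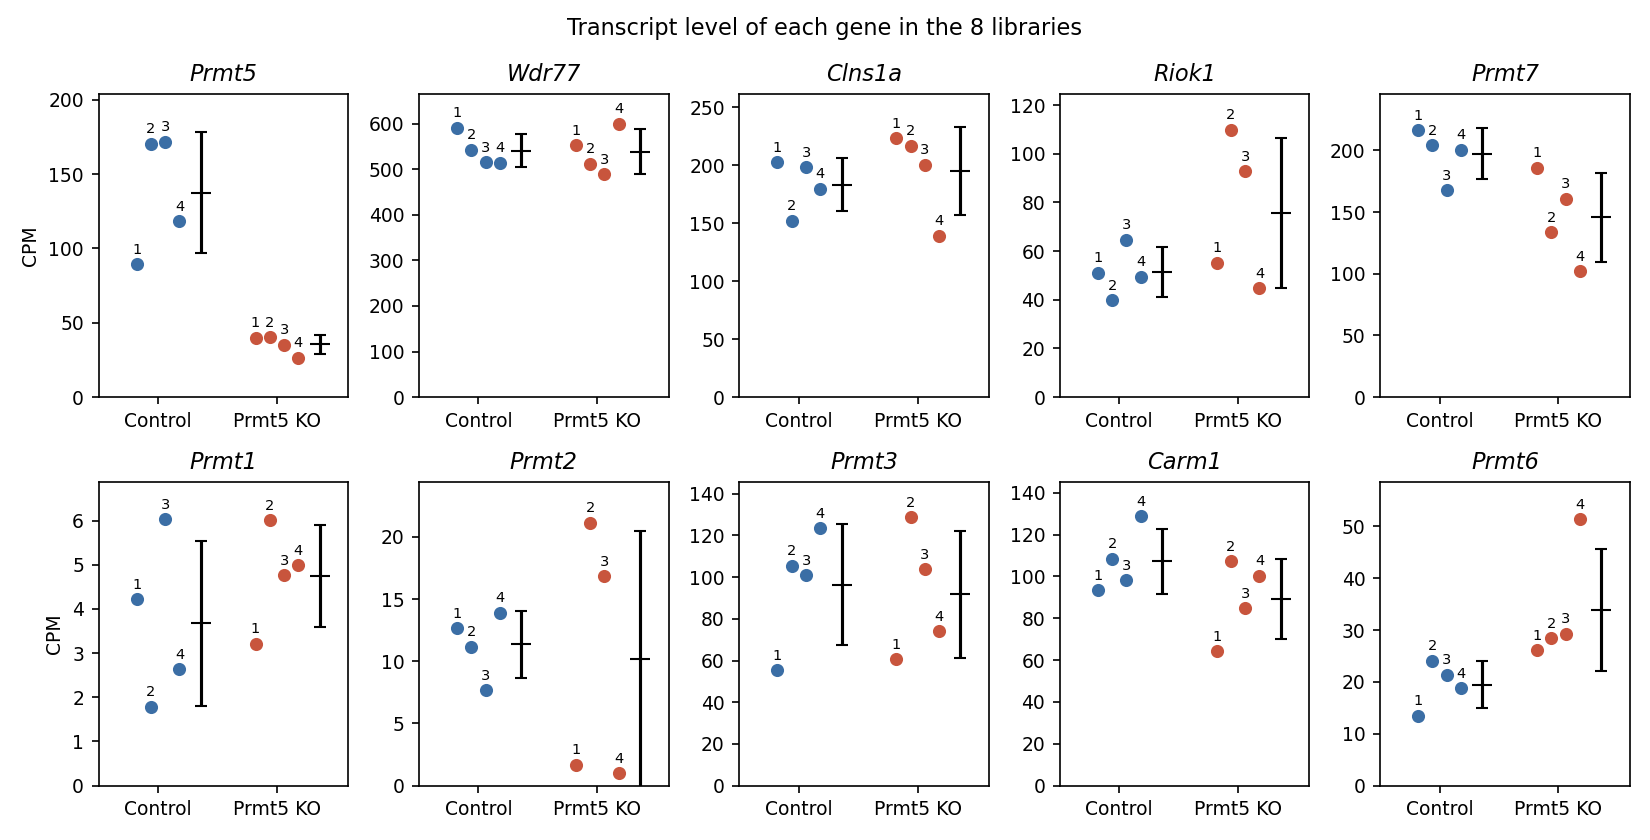
CPM of each gene in each library (points, numbered by library), with the mean and SD of the 4 libraries of a group as the bar beside them; the lower SD bar of Prmt2 in Prmt5 KO runs below 0 and is cut at the axis. Prmt5 is lower and Prmt6 higher in every Prmt5 KO library than in any Control library, and Prmt2 lies near 1 to 2 CPM in Prmt5 KO 1 and 4 but at 21.1 and 16.8 CPM in Prmt5 KO 2 and 3.

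Prmt7 (gene ENSMUSG00000060098, on the plus strand of GRCm38 chromosome 8 from 106210936 to 106252794), the monomethylating enzyme, was at 216, 204, 168 and 201 CPM across Control libraries 1 to 4, against 186, 134, 161 and 102 CPM across Prmt5 KO libraries 1 to 4. Prmt5 KO 2, 3 and 4 lay below all Control libraries and Prmt5 KO 1 among them. The ratio was 0.738 (95% interval 0.547 to 0.996; log2 fold change -0.44 ± 0.201 SE, unadjusted p = 0.0477, edgeR adjusted p = 0.607). It was 1 of 2 of the 10 genes with an unadjusted p under 0.05, the other being Prmt5, and 8.15% of all tested genes had such a p. The library with the lowest Prmt7, Prmt5 KO 4, was also the one with the lowest share of Prmt7-203.

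Among the type I enzymes, Prmt6 (gene ENSMUSG00000049300, on the minus strand of GRCm38 chromosome 3 from 110246109 to 110250998) was at 13.5, 24.1, 21.4 and 18.8 CPM across Control libraries 1 to 4, against 26.2, 28.5, 29.3 and 51.3 CPM across Prmt5 KO libraries 1 to 4. No Prmt5 KO library lay within the Control range, though the lowest was only slightly above the highest Control library and Prmt5 KO 4 stood far above the other 3. The ratio was 1.74 (95% interval 0.984 to 3.09; log2 fold change 0.80 ± 0.383 SE, edgeR adjusted p = 0.621), and without Prmt5 KO 4 the log2 fold change was 0.53 (adjusted p = 0.722). Groups did not overlap for 2 of the 10 genes, Prmt5 and Prmt6, and for 4.90% of all tested genes. The Prmt6-201 transcript is a single exon, and 984 of its 2450 bases overlap the opposite-strand gene C130013H08Rik, for which the joined counts were 0. A gene that is absent from the deposited counts is also given 0, so this need not be a measured absence. Whether counting used strand was not given in the sources used here.

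Prmt2 (gene ENSMUSG00000020230, on the minus strand of GRCm38 chromosome 10 from 76207222 to 76237865), a coactivator of nuclear receptors, was at 12.7, 11.2, 7.68 and 13.9 CPM across Control libraries 1 to 4, against 1.69, 21.1, 16.8 and 0.997 CPM across Prmt5 KO libraries 1 to 4. The Prmt5 KO libraries thus split, with 10 and 4 counts in Prmt5 KO 1 and 4 and 109 and 113 counts in Prmt5 KO 2 and 3. The exact 95% Poisson intervals, which cover counting error only, were 0.810 to 3.11 CPM in Prmt5 KO 1 and 0.272 to 2.55 CPM in Prmt5 KO 4, against 4.199 to 12.9 CPM in Control 3, the lowest Control library. Over the groups the ratio was 0.892 (95% interval 0.260 to 3.07, edgeR adjusted p = 0.982), and without Prmt5 KO 1 and 4 the log2 fold change turned from -0.16 to 0.72 (adjusted p = 0.806). It was -1.10 in limma voom (adjusted p = 0.798) and -1.03 with the replicate block in edgeR (adjusted p = 0.854). These are the 2 libraries that stood apart in multidimensional scaling; the part of that in the Prmt2 and Riok1 values was not tested.

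Prmt3 (gene ENSMUSG00000030505, on the plus strand of GRCm38 chromosome 7 from 49778346 to 49858265) was at 55.3, 105, 101 and 123 CPM across Control libraries 1 to 4, against 60.6, 129, 104 and 74.0 CPM across Prmt5 KO libraries 1 to 4. Control 1 and Prmt5 KO 1 were the lowest of their groups. The ratio was 0.955 (95% interval 0.612 to 1.49, edgeR adjusted p = 0.980).

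Carm1 (gene ENSMUSG00000032185, on the plus strand of GRCm38 chromosome 9 from 21546894 to 21592623) was at 93.5, 108, 98.2 and 129 CPM across Control libraries 1 to 4, against 64.3, 107, 85.0 and 100.4 CPM across Prmt5 KO libraries 1 to 4. Prmt5 KO 1 and 3 lay below all Control libraries and Prmt5 KO 2 and 4 among them. The ratio was 0.832 (95% interval 0.594 to 1.16, edgeR adjusted p = 0.805). Of the 3220 bases of the Carm1 transcript, 786 overlap Yipf2 on the opposite strand.

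Prmt1 (gene ENSMUSG00000109324, on the minus strand of GRCm38 chromosome 7 from 44975989 to 44986568) was at 4.23, 1.79, 6.03 and 2.64 CPM across Control libraries 1 to 4, against 3.21, 6.01, 4.76 and 4.98 CPM across Prmt5 KO libraries 1 to 4, overlapping widely. With so few counts the ratio of 1.30 had a 95% interval of 0.503 to 3.36 (edgeR adjusted p = 0.939), which leaves room for a Prmt1 level 2 times that of Control, and the interval of Prmt2 for such a difference in either direction. The intervals of Riok1 (0.920 to 2.38) and Prmt6 (0.984 to 3.09) also leave room for a level 2 times that of Control.

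**Figure D4:**
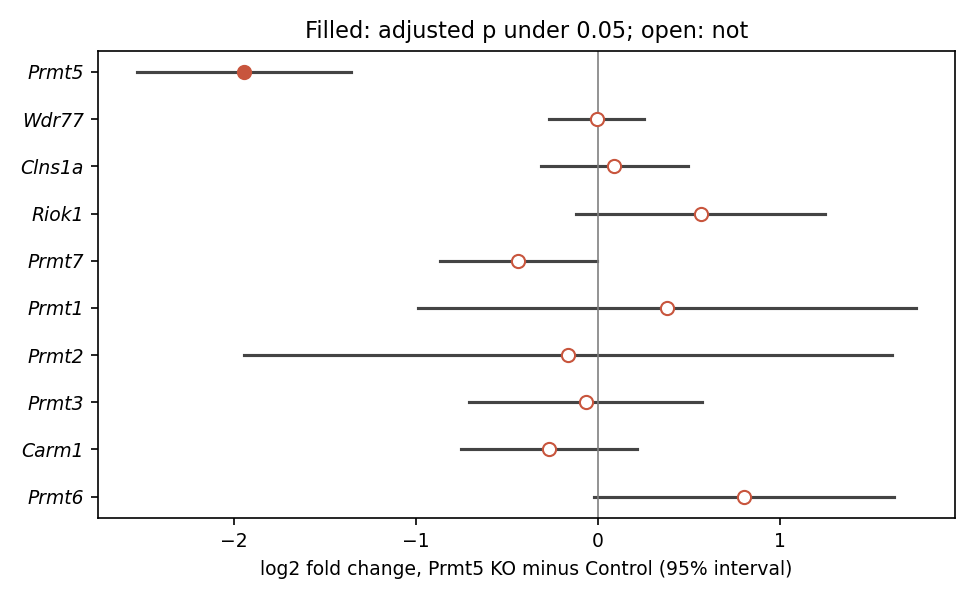
Log2 fold change of Prmt5 KO against Control (x axis) with its 95% interval for each gene, filled where the adjusted p is under 0.05. Prmt5 alone is filled, at -1.95; the interval of Wdr77 is the narrowest, from -0.27 to 0.25, and those of Prmt1 and Prmt2 are the widest.

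Summed over the 5 type I genes, the level was 65.6, 92.2, 87.2 and 105 CPM per kilobase across Control libraries 1 to 4, against 57.8, 111, 91.1 and 85.5 across Prmt5 KO libraries 1 to 4. The groups overlapped, with means of 87.6 ± 16.6 and 86.2 ± 21.8 (mean ± SD, n = 4 libraries per group). Prmt3 made up 43.0% ± 6.28 of that sum in Control and 42.1% ± 5.38 in Prmt5 KO, Carm1 38.4% ± 4.08 and 32.5% ± 3.57, and Prmt6 9.10% ± 1.53 and 16.7% ± 6.20 (mean ± SD, n = 4 libraries per group). The 6 methyltransferase genes other than Prmt5 summed to 144 ± 15.8 CPM per kilobase in Control and 128 ± 18.05 in Prmt5 KO (mean ± SD, n = 4 libraries per group). With Prmt5 included the sums were 195.5 ± 23.7 and 141 ± 19.2, and Prmt5 made up 25.9% ± 5.78 and 9.37% ± 1.66 of them (mean ± SD, n = 4 libraries per group). These sums are descriptions of the chosen genes and were not tested.

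**Figure D5:**
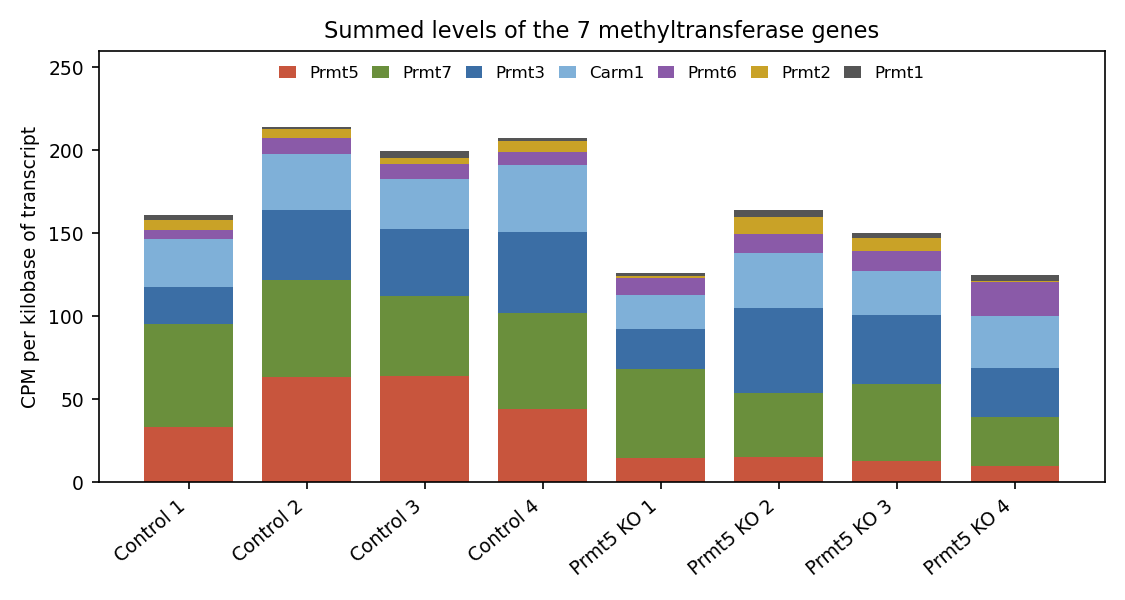
Level per transcript length (CPM per kilobase, y axis from 0) of the 7 methyltransferase genes stacked for each library. The Prmt5 segment shrinks in all 4 Prmt5 KO libraries, and the segments of Prmt3 and Carm1, the largest of the type I genes in every library, overlap in height between the groups.

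Genes around the family were examined as lists. Of 3 tested genes among 4 other arginine methyltransferases, 0 were called by edgeR (0 at an unadjusted p under 0.05) and all 3 lay below 0 in log2 fold change: Prmt9, a second enzyme of symmetric methylation that acts on the splicing factor SF3B2, was at -0.71 (62.1 ± 13.9 to 37.9 ± 14.1 CPM, mean ± SD, n = 4 libraries per group; edgeR adjusted p = 0.632) and Ndufaf7, a mitochondrial enzyme, at -0.44 (edgeR adjusted p = 0.756). Of 8 adaptors and regulators of PRMTs, 0 were called by edgeR (1 at an unadjusted p under 0.05, against 8.15% of all tested genes), with a median log2 fold change of -0.11. Btg2, a binder of PRMT1 and a known p53 target, was at 5.41, 4.46, 7.13 and 7.39 CPM across Control libraries 1 to 4, against 26.005, 18.4, 22.3 and 15.9 CPM across Prmt5 KO libraries 1 to 4, so its groups did not overlap, with a log2 fold change of 1.76 (edgeR adjusted p = 0.325). Btg2 was named for the smallest unadjusted p of its list, and groups did not overlap for 4.90% of all tested genes. Its relative Btg1 was at 0.77 (edgeR adjusted p = 0.680).

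Of 14 genes of the methyl donor cycle, which makes and recycles S-adenosylmethionine, 0 were called by edgeR (0 at an unadjusted p under 0.05), and the median log2 fold change was 0.06; Adk, adenosine kinase, was at 0.45 (edgeR adjusted p = 0.703) and Sms, spermine synthase, at 0.27 (edgeR adjusted p = 0.750). Of 10 genes that encode substrates of symmetric methylation, 0 were called by edgeR (0 at an unadjusted p under 0.05), with a median of 0.04; Trp53 was at 0.27 (edgeR adjusted p = 0.750) and the Sm protein gene Snrpb at 0.34 (edgeR adjusted p = 0.756). Of 14 genes that encode substrates of asymmetric methylation, 0 were called by edgeR (1 at an unadjusted p under 0.05, against 8.15% of all tested genes), with a median of 0.04. Taf15, an RNA-binding protein of the FET family, is on this list but is not that 1 gene. It was at -1.02 with overlapping groups (edgeR unadjusted p = 0.189, adjusted p = 0.767).

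The 3 tested genes whose log2 CPM followed those of Prmt5 most closely over the 8 libraries were Ap3m2, a subunit of the AP-3 vesicle adaptor (Pearson r = 0.982), Aldh7a1, an aldehyde dehydrogenase of lysine breakdown (r = 0.967), and Fgf5, a growth factor gene of the epiblast (r = 0.962). All 3 had groups that did not overlap, with log2 fold changes of -2.36, -0.56 and -1.83, and none was called (edgeR adjusted p = 0.296, 0.261 and 0.377). Groups did not overlap for 4.90% of all tested genes. Prmt5 itself separates the groups, so the separation and direction of the 3 genes follow largely from how they were picked. These correlations describe 8 libraries of 2 genotypes, were picked as the highest of all tested genes, and carry no p. None of the other 9 genes of the family was among them: the family gene most like Prmt5 over the libraries was Prmt7 (r = 0.684), and the one least like it was Prmt6 (r = -0.678).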

How the data were processed

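For 8 libraries the authors deposited whole-number counts of reads per Ensembl transcript, each made from 50 pg of RNA, per the labels' protocols. GRCm38 and mm10 are the builds in the submitters' processing notes; aligner, counter and use of strand were not given in the sources used here. Transcripts were matched to GENCODE M21 (64258 of 66262 identifiers, 97.0%); unmatched ones held 1.75% to 1.90% of a library's counts and were left out. Reads are counted for each overlapping transcript, so a gene took the value of the transcript whose total over all libraries was highest. Genes kept by filterByExpr (minimum count 10, total 15) were scaled by TMM and tested in all 8 libraries with edgeR 4.0.16 (robust quasi-likelihood test, Benjamini-Hochberg over all 10990 genes; R 4.3.3). CPM use the TMM-scaled sizes; standard errors are the log2 fold change divided by the square root of F, and 95% intervals use the total degrees of freedom. Shares of shorter transcripts used those with at least 50 counts in all, under 90% of the full transcript's counts, in genes with at least 30 counts in every library; these limits were chosen after the values were seen, and their background over all genes was added later. Limits on copies were 95% identity over 100 bases.

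Genes named were the 10 members, from each list without called genes the 2 of smallest unadjusted p, the 3 genes most like Prmt5, the 4 most abundant germ cell markers and, for each other cell type, its most abundant marker; other genes were named after their values were seen. A gene that this rule would name is not reported here. The members and lists were chosen with earlier results of these data known. The gene test was also run on simulated counts, which held no shifts of whole libraries, and its outcome there is not given here. No libraries were duplicates: chi-square per degree of freedom between libraries of a group was at least 7.73. Alternatives covered scaling, tool (DESeq2 1.42.0, limma 3.58.1), filter, robust estimation, block, libraries, gene value and depth.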

Additional observations from a re-analysis of the deposited data

Results flagged for a closer look

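The CPM of the 10 genes and the shares of their shorter transcripts make 72 sets of 4 values, 1 set for each group. In 6 sets the highest or lowest library stood far from the rest; chance gives this in about 1 in 20 sets, or 3.6 here, for independent values; shares of transcripts of 1 gene use the same reads and are not independent. Prmt5 KO 4 had the highest Prmt6 of its group (51.3 CPM), the highest share of Carm1-205 (3.47% of the full transcript's counts) and the lowest share of Prmt7-202, which spans exons 2 to 5 (5.37%). Prmt5 KO 3 had the highest share of Clns1a-202 (19.8%) and of Prmt3-204 (11.6%). Control 1 had the lowest share of Prmt7-204 among the Control libraries (30.2%).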

How the results depend on the processing

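No member other than Prmt5 passed under any of the 21 alternatives, and Riok1, Clns1a, Prmt1, Carm1, Prmt6 and Prmt7 kept the direction of their log2 fold change in each alternative in which they were tested (Prmt1 did not pass the filter with libraries thinned to the smallest). Prmt5 stayed between -2.25 and -1.54. Its call was lost with limma voom (-1.76, adjusted p = 0.170), with the replicate block (-1.92, 0.130), without Control 2 and 3 (-1.54, 0.760), without Prmt5 KO 1 and 4 (-1.85, 0.194) and with the sum of transcripts (-2.25, 0.0631); on leaving out 1 library it ran from -2.11 to -1.82 (adjusted p from 0.0198 to 0.234). The count of genes called, 3, was 103 in DESeq2 (0.963% of those with an adjusted p), 7 with no filter, 1 in limma voom, with the replicate block, without Prmt5 KO 1 and 4 and with the sum of transcripts, 0 without Control 2 and 3 (edgeR; 713 at an unadjusted p under 0.05), and 1 to 2 on leaving out 1 library. The deviations of same-numbered libraries from their group means correlated weakly (0.0023 to 0.069). For numbers 1, 2 and 4, but not 3, the best match was still the library of the same number. The labels do not state a pairing, so the main fit did not pair the libraries, and the replicate block gives the paired fit. Log2 fold changes of 3 uncalled genes changed sign: Wdr77 to 0.026 with no filter and between -0.061 and 0.040 on leaving out 1 library; Prmt3 to 0.0063 in limma voom, 0.044 without Control 2 and 3, 0.28 without Prmt5 KO 1 and 4, and between -0.27 and 0.089 on leaving out 1 library; Prmt2 to 0.72 without Prmt5 KO 1 and 4 and between -0.79 and 0.21 on leaving out 1 library, while it was -1.10 in limma voom and -1.03 with the replicate block. In the order of Control levels, 4 of 10 genes kept their rank with summed transcripts, where shared reads count more than once. On leaving out 1 Control library 6 to 10 genes kept it, 6 without Control 1. The causes were not tested. Low counts limit Prmt1. For Prmt2 the limit is the wide spread of its Prmt5 KO libraries, from 0.997 to 21.1 CPM, with 10 and 4 counts in Prmt5 KO 1 and 4. The intervals of Riok1 and Prmt6 also leave room for a level 2 times that of Control.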
